A study of Mus musculus with 8 samples.

Results

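The common gamma chain cytokine receptors examined here are 7 genes, Il2ra, Il2rb, Il2rg, Il7r, Il4ra, Il15ra and Il21r, chosen by symbol from the 31815 genes of the deposited count table. All 7 were found and all 7 passed the filter on low counts, which left 13329 genes for testing. The RNA came from mouse splenic CD8 T cells of the OT-I strain C57BL/6-Tg(TcraTcrb)1100Mjb/J, in which every group carries the same transgenic T cell receptor for an ovalbumin peptide. The peptide was present for 3 days of culture, and 24 h after its start the cells were transduced with a construct for TOXFL or TOXdeltaN followed by an internal ribosome entry site and GFP. On day 5 they were sorted, which gave 4 groups of 2 libraries each. TOXFL-positive cells were the brightest 20% of GFP-positive cells after TOXFL transduction, and TOXFL-negative cells were the GFP-negative cells of that transduction. TOXdeltaN-positive cells were the brightest 20% of GFP-positive cells after TOXdeltaN transduction, and TOXdeltaN-negative cells were their GFP-negative counterpart. TOX is a nuclear DNA-binding protein best known for its part in T cell exhaustion, and the labels do not say how TOXdeltaN differs from TOXFL. The age of the mice is not given in the sources used here, and cells with a vector for GFP alone were not analysed here. GFP-positive and GFP-negative cells therefore differ in transduction, in GFP and in brightness as well as in the TOX construct, and these cannot be told apart.

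The shared chain of the family is encoded by Il2rg. It joins cytokine-specific chains to form the receptors for IL-2, IL-4, IL-7, IL-9, IL-15 and IL-21. The shared chain carries the kinase JAK3, while partner chains other than the alpha chains Il2ra and Il15ra carry JAK1. The kinases phosphorylate STAT proteins, chiefly STAT5 for IL-2, IL-7 and IL-15, STAT6 for IL-4 and STAT3 for IL-21. In CD8 T cells IL-2 is known for driving expansion and effector differentiation, while IL-7 and IL-15 are known for keeping naive and memory cells alive.

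Libraries held between 25059112 and 31240067 counts, and the 7 genes together took 0.291% to 0.333% of them. Whether replicate libraries stem from different mice or cultures is not labelled, so each p-value reflects library-to-library spread alone, and that spread may be technical. Tox was at 105 and 126 CPM (counts scaled to a common library total) in TOXFL-positive cells against 25.1 and 34.4 CPM in TOXFL-negative cells. It was at 107 and 82.9 CPM in TOXdeltaN-positive cells against 21.8 and 32.2 CPM in TOXdeltaN-negative cells, so GFP-positive libraries were higher with either construct. The 6 CD8 T cell markers (Cd3e, Cd3d, Cd8a, Cd8b1, Cd2 and Cd28) summed to between 2811 and 3218 CPM in every library. The 5 B cell markers summed to at most 17.5 CPM and 6 myeloid markers to at most 3.01 CPM. The 5 NK cell markers (Ncr1, Klrb1c, Nkg7, Tyrobp and Fcer1g) summed to 943 to 1245 CPM. The 5 markers of CD4 and regulatory T cells (Cd4, Foxp3, Ikzf2, Cd40lg and Ctla4) summed to 144 to 209 CPM. Cd4 itself had few counts, given under Other observations. These sums follow their most abundant markers and do not count the cells of a type. The replicates differed most in TOXdeltaN-positive cells, where chi-square per degree of freedom was 40.2, against 11.6 to 19.7 in the other groups.

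To show where the genes that follow lie, the stretches just before the start sites of Il2rg, Il4ra and Il21r are printed. Il2rg and Il4ra are the genes whose level was lower in every GFP-positive library, and Il21r is the one with the largest positive average difference. The stretches come from RefSeq, build GRCm38.p6, and end 1 base before the earlier of the RefSeq and GENCODE M21 starts. Of the 7 genes, 6 had an entry. Capitals mark matches to the motifs searched on both strands, which were TTCNNNGAA (the letters of a STAT site), CAGGAAG (an ETS-type site) and GTAAACA (a forkhead-type site).
Il2rg (chrX:101268256-101268505, minus strand): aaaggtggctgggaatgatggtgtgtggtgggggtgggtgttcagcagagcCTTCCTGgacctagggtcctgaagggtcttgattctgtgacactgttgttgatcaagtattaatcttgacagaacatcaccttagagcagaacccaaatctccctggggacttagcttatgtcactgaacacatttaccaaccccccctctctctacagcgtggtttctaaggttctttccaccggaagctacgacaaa
Il4ra (chr7:125552021-125552119, plus strand): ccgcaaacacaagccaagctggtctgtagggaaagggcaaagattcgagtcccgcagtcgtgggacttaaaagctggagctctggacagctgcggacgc
Il21r (chr7:125603179-125603428, plus strand): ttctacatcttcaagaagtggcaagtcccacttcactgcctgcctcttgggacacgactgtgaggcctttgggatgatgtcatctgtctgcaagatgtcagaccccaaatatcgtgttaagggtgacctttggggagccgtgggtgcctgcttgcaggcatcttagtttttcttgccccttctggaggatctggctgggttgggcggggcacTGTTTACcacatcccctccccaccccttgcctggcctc
The Il2rg stretch of 250 bases held 1 match to CAGGAAG, on the strand opposite to the one printed. Of all 32851 RefSeq promoters, 10.82% had a match in a stretch of that length. The Il21r stretch of 250 bases held 1 match to GTAAACA, on the opposite strand, which 3.166% of the promoters had. The Il4ra stretch of 99 bases held none of the motifs. In stretches of 99 bases 2.834% of the promoters had TTCNNNGAA, 3.732% had CAGGAAG and 1.294% had GTAAACA. In stretches of 250 bases TTCNNNGAA was present in 7.02%. A match describes these letters and is no evidence of binding. GC content was 49.2% for Il2rg, 57.58% for Il4ra and 55.6% for Il21r.

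In the GRCm38 build with GENCODE M21, Il4ra lies on chromosome 7 from 125552120 to 125579474. Il21r lies from 125603429 to 125633570 of the same chromosome and strand, with 23954 bases between them. Il2ra, at 11642807 to 11693193 of chromosome 2, and Il15ra, at 11705290 to 11734317, are likewise neighbours on 1 strand, with 12096 bases between them. Il2rb (78479256 to 78495271) and Il7r (9505788 to 9530176) lie far apart on the minus strand of chromosome 15. Il2rg occupies 101264378 to 101268255 on the minus strand of chromosome X. The annotated gene Gm20489 shares exons with it on the same strand, and Gm20489 had 0 to 29 counts per library against at least 25048 for Il2rg. The antisense gene Gm44876 overlaps exons of Il4ra. The library kit does not mark strand, so their reads cannot be told apart by strand. Gm44876 had 0 to 13 counts per library, against at least 5354 for Il4ra.

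The levels of the chains were compared per length, as CPM per kilobase of exon. The shared chain Il2rg was the most abundant, with a mean level of 496 CPM per kilobase over the 8 libraries (range 419 to 541), above 99.6% of the tested genes. Il2rb, the beta chain of the IL-2 and IL-15 receptors, followed at 278 CPM per kilobase (range 251 to 298). The IL-21-specific chain Il21r was next at 83.8 CPM per kilobase (range 76.8 to 89.9). The cells thus held more transcript of the shared chain per length than of any partner chain. For Il2rg and Il2rb this order rests on the division by merged exon length, 2387 and 4287 bases. Before that division their mean levels were 1184 and 1190 CPM.

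The next 2 were Il4ra, which binds IL-4 and also IL-13 together with another chain, at 44.0 CPM per kilobase (range 35.7 to 49.4), and Il2ra at 33.7 CPM per kilobase (range 31.6 to 37.0). Il2ra encodes the alpha chain that raises the affinity of the receptor for IL-2. The ranges of Il4ra and Il2ra overlapped, although Il4ra was higher within each of the 8 libraries. Il7r, the IL-7-specific chain that also takes part in the TSLP receptor, was at 13.7 CPM per kilobase (range 12.01 to 15.1). Il15ra, the alpha chain that binds and presents IL-15, was lowest at 4.63 CPM per kilobase (range 3.67 to 6.38), above 45.1% of the tested genes. No other neighbours in this order overlapped. Over the 8 libraries the highest level was 1.17 to 1.39 times the lowest for 6 of the genes, and 1.74 times for Il15ra.

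**Figure D1:**
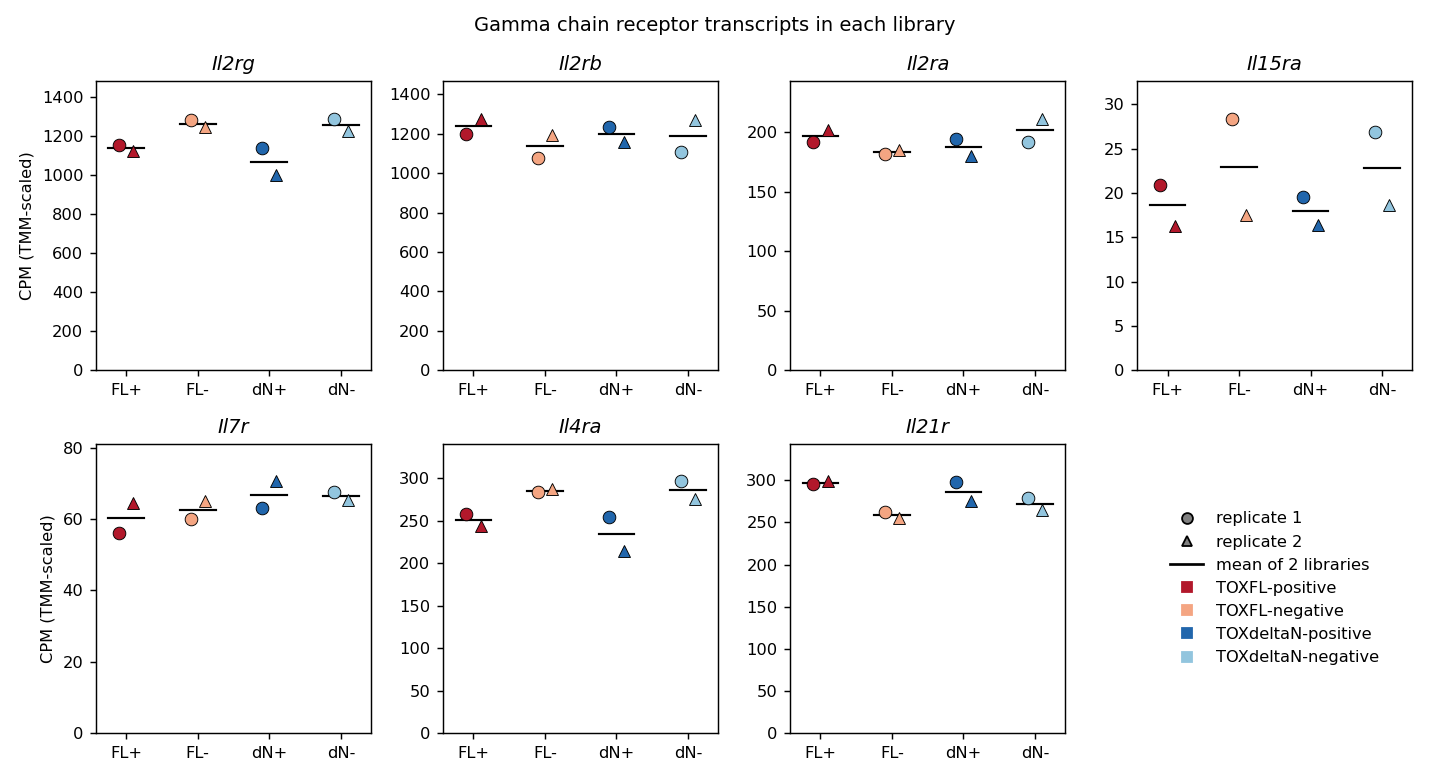
Level of each receptor gene in each library, in CPM on linear axes from 0, for TOXFL (FL) and TOXdeltaN (dN) cells that were GFP-positive (+) or GFP-negative (-). Circles are replicate 1, triangles replicate 2 and horizontal lines the means of 2 libraries. Il2rg and Il4ra were lower in all 4 GFP-positive libraries than in all 4 GFP-negative ones, while the Il15ra libraries split by replicate number.

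Il2rg and Il4ra were the only 2 of the 7 whose GFP-positive and GFP-negative libraries did not overlap. The shared chain Il2rg was at 1154 and 1126 CPM in TOXFL-positive cells, against 1284 and 1246 CPM in TOXFL-negative cells. It was at 1139 and 1001 CPM in TOXdeltaN-positive cells, against 1290.4 and 1229 CPM in TOXdeltaN-negative cells. Its highest GFP-positive library was thus below its lowest GFP-negative library. The average GFP-positive difference over both constructs was a log2 fold change of -0.19 (SE 0.0609, 95% interval -0.33 to -0.06). In edgeR's quasi-likelihood test without a block the adjusted p was 0.115, which does not pass the threshold of 0.05. With the replicate number as a block, a pairing inferred from the data, it was -0.19 (SE 0.0486) with an adjusted p of 0.0302, which does pass.

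Il4ra was at 258 and 244 CPM in TOXFL-positive cells, against 284 and 287 CPM in TOXFL-negative cells. It was at 255 and 214 CPM in TOXdeltaN-positive cells, against 296 and 276 CPM in TOXdeltaN-negative cells. All GFP-positive libraries again lay below all GFP-negative ones, by a narrower margin between the nearest libraries in TOXdeltaN cells than the spread within TOXdeltaN-positive cells. The average log2 fold change was -0.24 (SE 0.0726, 95% interval -0.40 to -0.07), with an adjusted p of 0.109 in edgeR's test without a block. The blocked fit gave -0.24 (SE 0.0601) with an adjusted p of 0.0303. DESeq2 called it as well, with an adjusted p of 0.045, but limma-voom did not.

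The call of Il2rg rests on the pairing or on which libraries are kept, and that of Il4ra also on the tool and the filter. In the fit without a block, leaving out TOXdeltaN-positive replicate 1 brought both genes past the threshold, with an average of -0.24 (adjusted p 0.0115) for Il2rg and -0.30 (adjusted p 0.00889) for Il4ra, in a fit that called 10.4% of all tested genes lower (2504 genes in either direction). In the blocked fit, both calls remained when either TOXdeltaN-positive library was left out, and that of Il2rg also without TOXFL-positive replicate 2. All tested genes were called at 26.5% without TOXdeltaN-positive replicate 1, at 14.5% without TOXdeltaN-positive replicate 2 and at 7.60% without TOXFL-positive replicate 2. They were lost for Il2rg in the other 5 omissions and for Il4ra in the other 6, with adjusted p-values up to 0.199 and 0.188. The direction stayed negative in all of these fits. Without TOXdeltaN-positive replicate 2, the library of the group with the widest replicate spread, the blocked fit called 5 of the 7 genes, against those 14.5% of all tested genes. Beside Il2rg (-0.16, adjusted p 0.00940) and Il4ra (-0.19, 0.0154) these were Il15ra (-0.37, 0.0216), Il21r (0.16, 0.0311) and Il2rb (0.13, 0.0381).

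In edgeR's test without a block, 3 of the 7 genes (Il2rg, Il4ra and Il21r) had an unadjusted p under 0.05 for the average effect. Among all 13329 tested genes, 2920 had one. Of the 7, edgeR called 0 in that fit, against 2.42% of all tested genes. With the block it called 2 of 7, both lower, where 12.7% of all tested genes were called and 6.69% were called lower. The median average log2 fold change was -0.02 over the 7 genes and -0.00052 over all tested genes. No receptor gene had GFP-positive libraries wholly above GFP-negative ones, which 8.22% of all tested genes had. Over all tested genes 8.08% had GFP-positive libraries wholly below GFP-negative ones, so 1077 genes shared the pattern of Il2rg and Il4ra.

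**Figure D2:**
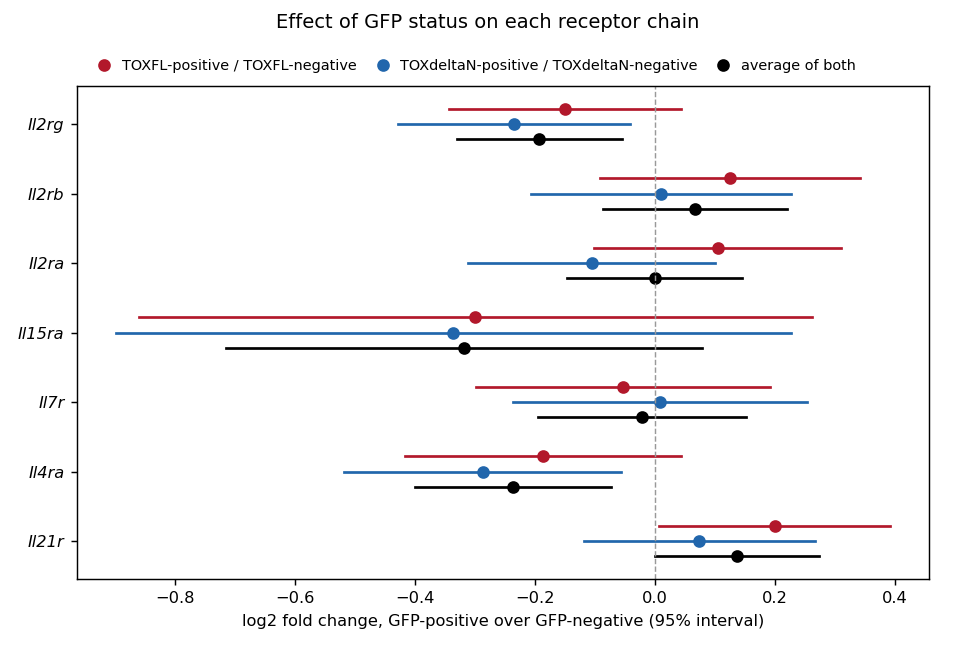
Log2 fold change (GFP-positive over GFP-negative cells) with its 95% confidence interval for every receptor gene, for TOXFL, for TOXdeltaN and averaged, in the fit without a block. The average intervals of Il2rg (-0.33 to -0.06) and Il4ra (-0.40 to -0.07) lie below 0. That of Il21r (0.0005 to 0.27) lies just above 0, and those of Il2ra, Il2rb, Il7r and Il15ra include it.

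Il21r was the gene with the largest positive average difference. It was at 295 and 299 CPM in TOXFL-positive cells, against 262 and 255 CPM in TOXFL-negative cells, which do not overlap. It was at 298 and 275 CPM in TOXdeltaN-positive cells, against 279 and 265 CPM in TOXdeltaN-negative cells, which do. The log2 fold change was 0.20 (SE 0.0855, 95% interval 0.01 to 0.39) for TOXFL and 0.07 (95% interval -0.12 to 0.27) for TOXdeltaN. Neither passed, with adjusted p-values of 0.355 and 0.742 in edgeR's test. The difference between the construct effects was 0.13 (95% interval -0.15 to 0.40), so these data do not show that they differ. The average of both was 0.14 (95% interval 0.0005 to 0.27), with an adjusted p of 0.227 without and 0.127 with the block.

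Il2rb was at 1201 and 1277 CPM in TOXFL-positive cells, against 1077 and 1196 CPM in TOXFL-negative cells. It was at 1235 and 1159.5 CPM in TOXdeltaN-positive cells, against 1107 and 1271 CPM in TOXdeltaN-negative cells, so the groups overlap for TOXdeltaN only. Its average log2 fold change was 0.07 (95% interval -0.09 to 0.22), and 0.02 to 0.12 with 1 TOXdeltaN-negative library, replicate 1 or 2, left out. Il2ra was at 192 and 202 CPM in TOXFL-positive cells, against 182 and 185 CPM in TOXFL-negative cells. It was at 194 and 180.3 CPM in TOXdeltaN-positive cells, against 192 and 211 CPM in TOXdeltaN-negative cells. Its average log2 fold change was -0.00075 (95% interval -0.15 to 0.14), because the fitted differences for TOXFL (0.10) and for TOXdeltaN (-0.11) have opposite signs. The difference between them was 0.21 (95% interval -0.08 to 0.50) and did not pass, with an unadjusted p of 0.138. With all 8 libraries kept, neither gene passed in a GFP comparison in the fits with or without the block.

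Il7r was at 56.0 and 64.6 CPM in TOXFL-positive cells, against 60.0 and 65.1 CPM in TOXFL-negative cells. It was at 63.1 and 70.5 CPM in TOXdeltaN-positive cells, against 67.5 and 65.3 CPM in TOXdeltaN-negative cells, with overlap for either construct. Its average log2 fold change of -0.02 (95% interval -0.20 to 0.15) does not exclude a difference of that size in either direction. Il15ra was at 20.9 and 16.3 CPM in TOXFL-positive cells, against 28.4 and 17.5 CPM in TOXFL-negative cells. It was at 19.6 and 16.4 CPM in TOXdeltaN-positive cells, against 26.9 and 18.6 CPM in TOXdeltaN-negative cells. Replicate 1 was higher than replicate 2 in all 4 groups, with replicate 2 at 0.616 to 0.839 of replicate 1. Il15ra had 411 to 787 counts per library. Its average log2 fold change was -0.32 (95% interval -0.72 to 0.08), with an adjusted p of 0.323 without and 0.0592 with the block. Without the block it was -0.12 when TOXFL-negative replicate 1 was left out and -0.47 when TOXFL-negative replicate 2 was, with values between these for the other libraries.

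Each construct was also tested on its own. For TOXFL, edgeR called 0 of the 7 genes (0.0450% of all tested genes were called). An unadjusted p under 0.05 was found for 1 of the 7 (Il21r) and for 1790 of all 13329 tested genes. For TOXdeltaN it called 0 of the 7 (0.0300% of all tested genes). An unadjusted p under 0.05 was found for 2 of the 7 (Il2rg and Il4ra) and for 1632 of all 13329 tested genes. The log2 fold changes for TOXdeltaN were -0.24 (95% interval -0.43 to -0.04) for Il2rg and -0.29 (-0.52 to -0.06) for Il4ra. For TOXFL they were -0.15 (-0.34 to 0.04) and -0.19 (-0.42 to 0.04). The blocked fit called none of the 7 for TOXFL (3.48% of all tested genes) or for TOXdeltaN (1.65%), and DESeq2 and limma-voom called none for either. Leaving out either TOXdeltaN-positive library from the blocked fit brought Il2rg, Il4ra and Il21r past the threshold for TOXFL, at -0.15, -0.19 and 0.20, although that library is in neither TOXFL group. Those fits called 12.8% of all tested genes for TOXFL without replicate 1 and 12.6% without replicate 2. Leaving out TOXdeltaN-positive replicate 1 brought Il2rg and Il4ra past it for TOXdeltaN, at -0.33 and -0.42 without the block. That fit called 7.22% of all tested genes lower (1571 genes in either direction), and the remaining library is assumed to vary like the other groups. In libraries of TOXFL cells, 3 of the 7 genes (Il2ra, Il2rb and Il21r) had GFP-positive values above both GFP-negative values, a pattern that 24.9% of all tested genes showed, and 2 (Il2rg and Il4ra) lay below, as 25.5% did. In TOXdeltaN cells, 0 lay above (21.1% of all genes) and 2 lay below (20.8%), again Il2rg and Il4ra.

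TOXFL and TOXdeltaN were set against each other within the same GFP class. TOXFL-positive against TOXdeltaN-positive cells gave log2 fold changes of -0.15 to 0.10 over the 7 genes, with a lowest adjusted p of 0.829 by edgeR. TOXFL-negative against TOXdeltaN-negative cells gave -0.14 to 0.01, with a lowest adjusted p of 1.00. The test of the difference between the construct effects called 0 of 7 as well. In these comparisons 0 of the 7 had an unadjusted p under 0.05. Among all 13329 tested genes 768 had one between GFP-positive groups, 328 between GFP-negative groups and 318 for the construct difference. Of all tested genes 0% were called. With the block the figure was 0.00750% between the GFP-positive groups, with no receptor gene among them. Among the GFP-negative cells 3 of the 7 (Il2ra, Il7r and Il21r) were lower in both TOXFL-negative libraries than in both TOXdeltaN-negative ones, as 16.6% of all tested genes were. With 2 libraries a group, missing the threshold does not show that the constructs act alike.

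Since every GFP-positive library had less Il2rg, each partner was also set against Il2rg within the library, as a ratio of CPM per kilobase. These ratios were chosen after the values were seen and carry no test. The Il21r ratio was 0.184 to 0.197 in GFP-positive libraries, against 0.146 to 0.155 in GFP-negative libraries, and the Il2rb ratio was 0.580 to 0.645 against 0.467 to 0.576. Neither overlapped. The ratio to Il2rg was likewise wholly higher for 27.1% of all tested genes, so it is not particular to these chains. For Il4ra the ratios overlapped, at 0.0850 to 0.0890 in GFP-positive and 0.0880 to 0.0916 in GFP-negative libraries. The ratios of Il2ra (0.0695 to 0.0753 against 0.0592 to 0.0719), Il7r (0.0248 to 0.0361 against 0.0239 to 0.0272) and Il15ra (0.00778 to 0.00973 against 0.00753 to 0.0119) overlapped.

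**Figure D3:**
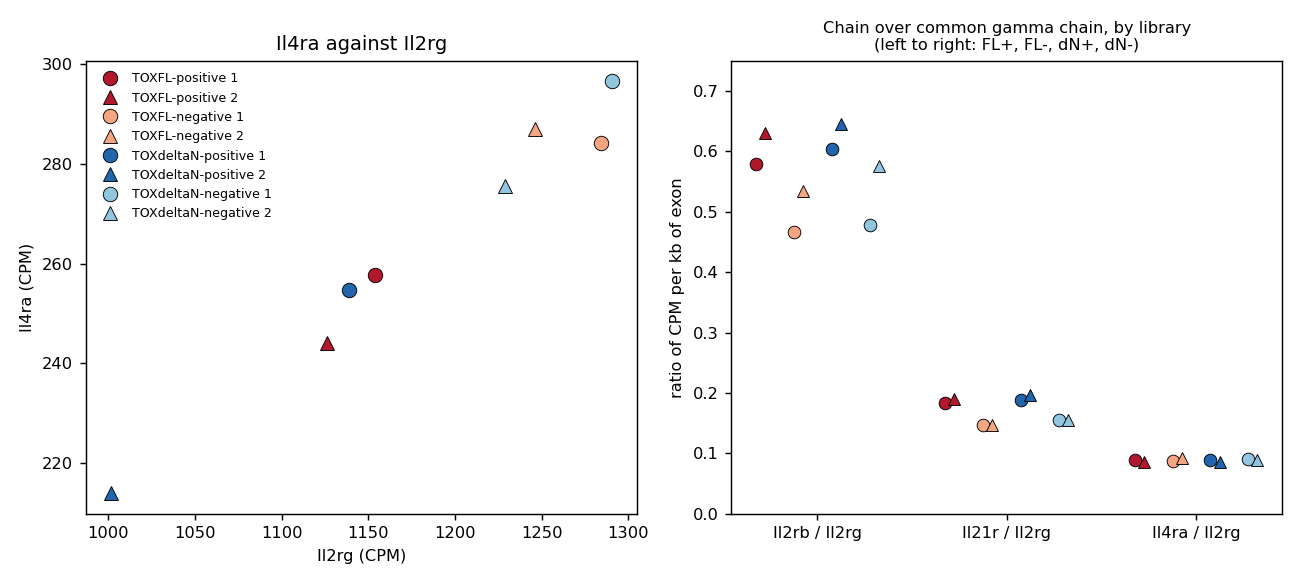
The left panel plots Il4ra against Il2rg in CPM for each library, on axes that do not start at 0, with all 4 GFP-positive libraries at the lower left. The right panel plots the ratios of Il2rb, Il21r and Il4ra to Il2rg, from CPM per kilobase of exon. The 4 GFP-positive libraries lie above the 4 GFP-negative ones for Il21r (0.184 to 0.197 against 0.146 to 0.155) and for Il2rb.

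The genes whose log2 CPM followed each receptor most closely over the 8 libraries were found among 9053 tested genes with a mean above 8 CPM. The Pearson correlations below describe libraries that share the GFP groups and the scaling. For Il2rg the nearest were Usp28 (0.995), Slc12a7 (0.994) and Sidt1 (0.993), and for Il4ra they were Ablim1 (0.995), Etnk1 (0.991) and Sh3kbp1 (0.991). Il21r was nearest to Flot2 (0.977), Akt1 (0.969) and Zfp367 (0.961). Il15ra was nearest to Plekho1 (0.981), Osm (0.966) and Gimap4 (0.965). Among the nearest 3 of Il2rb were Nsmaf (0.961) and Mfhas1 (0.919). Il7r was nearest to Ankrd13d (0.960), Zfp296 (0.947) and Snx20 (0.937), and Il2ra to Man1b1 (0.929), Nol11 (0.923) and Atmin (0.923). No receptor gene was among the nearest 3 of another. Between receptor genes the correlation was highest for Il2rg with Il4ra (0.989), followed by Il2ra with Il2rb (0.744). It was lowest for Il2rb with Il15ra (-0.777).

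The remaining chains and the ligands of the family were mostly scarce. Crlf2, the second chain of the TSLP receptor, was at 33.3 and 33.9 CPM in TOXFL-positive cells, against 30.5 and 30.99 CPM in TOXFL-negative cells. It was at 33.0 and 40.2 CPM in TOXdeltaN-positive cells, against 29.9 and 32.5 CPM in TOXdeltaN-negative cells. All GFP-positive libraries lay above all GFP-negative ones, but the average log2 fold change of 0.18 had an adjusted p of 0.247 in edgeR. Il9r, the IL-9-specific chain, had 12 and 36 counts in TOXFL-positive, 5 and 13 in TOXFL-negative, 14 and 39 in TOXdeltaN-positive and 8 and 19 in TOXdeltaN-negative libraries. Replicate 2 was higher in each group, and no call was made (adjusted p 0.266). Of the 8 ligands only Il2 (5 to 19 counts per library) and Il15 (0 to 12 counts) were tested, and neither was called. Il9, Il13, Il21 and Tslp were at 0 counts in every library, which allows at most 0.0941 to 0.120 CPM, from 3 counts and for counting error only.

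Next came the signalling genes just below the receptors. None of the 17 tested of 18 listed (JAK and STAT genes, adaptors, phosphatases and kinases) was called by edgeR without a block, with a median average log2 fold change of -0.13. The block called 5 of 17, all lower in GFP-positive cells, where 6.69% of all tested genes were called lower. Among them were Jak1, the kinase carried by some of the partner chains (-0.32, adjusted p 0.0175), and Irs2, an adaptor used by IL-4 (-0.28, 0.0291). The phosphoinositide 3-kinase subunits Pik3r1 (-0.25, 0.0260) and Pik3cd (-0.25, 0.0450) were also among them. Jak1 was at 959 and 935 CPM in TOXFL-positive cells, against 1147 and 1109 CPM in TOXFL-negative cells. It was at 966 and 710.1 CPM in TOXdeltaN-positive cells, against 1139 and 1033 CPM in TOXdeltaN-negative cells. The groups did not overlap. Jak3, the kinase of the shared chain, had an average log2 fold change of -0.04, and Stat5a and Stat5b had -0.03 and -0.17, none of which passed. Of the 8 fits that each left out 1 library under the block, Jak1 was called in 4, Pik3cd in 3, Irs2 in 2 and Pik3r1 in 2. With a length correction added to the block, Pik3r1 was no longer called (-0.14, adjusted p 0.153).

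Feedback regulators and targets of these cytokines gave 0 calls of 16 without a block, with a median of -0.08. With the block 1 of 16 was called, against 12.7% of all tested genes. It was the survival gene Bcl2l1, higher in GFP-positive cells (0.22, adjusted p 0.0485). It was at 59.8 and 60.7 CPM in TOXFL-positive cells, against 48.2 and 50.1 CPM in TOXFL-negative cells, and at 63.1 and 60.0 CPM in TOXdeltaN-positive cells, against 52.5 and 58.3 CPM in TOXdeltaN-negative cells. Cish (0.10) and Socs1 (-0.07), both induced by STAT5, had values that did not pass, as did Myc (-0.17) and Mcl1 (-0.15). With block and length correction together Myc (-0.22, adjusted p 0.0225) and Mcl1 (-0.18, 0.0452) did pass. Under the block with 1 library left out Bcl2l1 was called in 2 of 8 fits.

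Genes listed as regulators of Il7r or Il2ra transcription numbered 12, with a median of -0.21. Of these, 0 were called without a block and 4 were called lower with it, against 6.69% of all tested genes. They were Klf2 (-0.41, adjusted p 0.00178), Foxp1 (-0.29, 0.0104), Tcf7 (-0.25, 0.0321) and Foxo1, which is known to activate Il7r (-0.21, 0.0365). Klf2 was at 370.3 and 294 CPM in TOXFL-positive cells, against 484 and 412 CPM in TOXFL-negative cells. It was at 367 and 305 CPM in TOXdeltaN-positive cells, against 479 and 396 CPM in TOXdeltaN-negative cells, with no overlap. Under the block with 1 library left out, Klf2 was called in 8 of 8 fits, Foxp1 in 4, Tcf7 in 2 and Foxo1 in 2. With the length correction added, Foxp1 (-0.12, adjusted p 0.115) and Foxo1 (-0.12, 0.153) were no longer called. The list pools regulators of either gene and does not sort them by target or by direction. Il7r and Il2ra themselves had average log2 fold changes of -0.02 and -0.00075, and whether the listed genes act on them here was not tested.

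**Figure D4:**
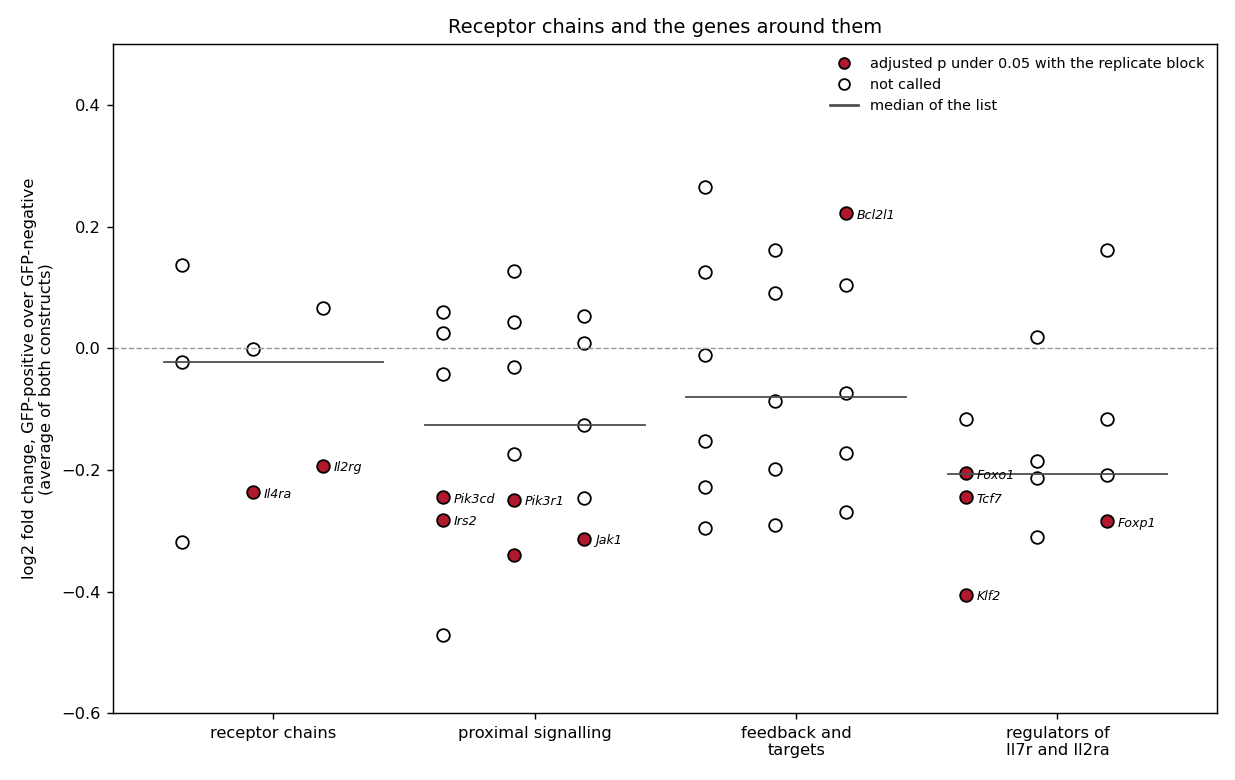
Average log2 fold change, GFP-positive over GFP-negative cells, of every tested gene of the receptor, signalling, feedback and regulator lists in the fit without a block. Filled points are genes called in the blocked fit, with symbols for those described in the text, and horizontal lines are the medians of the lists. The medians are -0.02 for the 7 receptors, -0.13 for signalling genes, -0.08 for feedback genes and -0.21 for regulators.

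Of 7 proliferation genes, 3 were called higher in GFP-positive cells without a block, where 2.42% of all tested genes were called in either direction. For 4 of the 7 all GFP-positive libraries lay above all GFP-negative ones, as they did for 8.22% of all tested genes. The 7 proliferation genes summed to 2934 to 3015 CPM in TOXFL-positive cells against 2368 to 2581 CPM in TOXFL-negative cells. They summed to 2788 to 3104 CPM in TOXdeltaN-positive cells against 2537 to 2546 CPM in TOXdeltaN-negative cells. CD8 T cell markers summed to 2811 to 3008 CPM in TOXFL-positive cells against 3070 to 3108 CPM in TOXFL-negative cells. They summed to 3043 to 3151 CPM in TOXdeltaN-positive cells against 3121 to 3218 CPM in TOXdeltaN-negative cells. With the block 1 of the 6 CD8 T cell markers was called lower, where 6.69% of all tested genes were called lower. In GFP-positive libraries 3 of the 6 lay wholly lower (8.08% of all tested genes) and 1 wholly higher (8.22%). B cell markers summed to 13.99 to 16.4 CPM in GFP-positive and 16.4 to 17.5 CPM in GFP-negative libraries. NK cell markers summed to 1033 to 1245 CPM in GFP-positive and 943 to 1009 CPM in GFP-negative libraries. Such a sum follows its most abundant markers and does not count the cells of a type. Of the 5 NK cell markers 3 were tested. In GFP-positive cells 1 of the 3 was fitted higher (0.21 without a block) and 2 lower (-0.68 and -1.37). With the block 1 of the 3 was called higher, where 12.7% of all tested genes were called in either direction. Mitochondrial genes took 0.450% to 0.798% of the counts in GFP-positive libraries, against 0.832% to 0.909% in GFP-negative libraries. The part of these markers and of the mitochondrial share in the lower Il2rg and Il4ra levels was not tested. In RNA from a pool of cells, fewer cells with a transcript and less of it per cell cannot be told apart.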

How the data were processed

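RNA from sorted CD8 T cells was measured in 8 libraries, each built on 8 ng of RNA by SMART-Seq amplification and Nextera tagmentation, per the labels' protocols. The submitters' processing notes list bcl2fastq 2.20, cutadapt, STAR 2.6.1, RSEM 1.2.28 and GRCm38. The authors deposited RSEM estimated counts (expected count per gene) without normalization, already whole numbers, so no rounding was needed. The step that made them whole and the annotation release are not given in the sources used here. The 92 spike-in rows held 0 counts and were left out.

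Here edgeR 4.0.16 (R 4.3.3) was run on the counts. filterByExpr by group left 13329 genes, TMM scaled the libraries, and a quasi-likelihood F-test on group means used all 8 libraries. P-values were adjusted by Benjamini-Hochberg across those 13329 genes, and calls were made under 0.05. The biological coefficient of variation was 0.1321. CPM uses the TMM factors, and CPM per kilobase divides by merged exon length in GENCODE M21 (31173 row identifiers matched with version, 31748 without). DESeq2 1.42.0, limma 3.58.1 with voom, another scaling, no filter, only the groups compared, a length correction and each library left out were alternatives. The block with a library left out was added after seeing the data.

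Every group has replicates 1 and 2, and the labels do not say what they mark. Same-numbered libraries were checked, before calls were compared, by correlating their deviations from group means. All 6 pairs of groups were positive, at 0.168 to 0.241 over tested genes, so the pairing is inferred from the data, and the blocked fit is given where it changes a call. Its coefficient of variation was 0.0958.

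The receptor genes and the lists were chosen with earlier results of these data known. Named from each list were the 3 genes with the lowest unadjusted p for the average effect and any gene called, and Jak3, Stat5a, Stat5b, Cish and Socs1 were named after their values were seen. A few genes that the rule names are not reported here. The 95% intervals come from the edgeR fit and reflect the spread between libraries, while the limit given for a count of 0 covers counting error only.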

Additional observations from a re-analysis of the deposited data

How the results depend on the processing

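The negative average values of Il2rg and Il4ra kept their sign in every alternative run, between -0.26 and -0.15 for Il2rg and between -0.30 and -0.18 for Il4ra. Fewer than 3 libraries a group limits every call, and Il15ra and the ligands are further limited by low counts. The cause of each change below was not tested, except that fewer libraries were fitted where libraries were left out.

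The replicate block, for a pairing inferred from the data, called 464 genes for TOXFL, 220 for TOXdeltaN, 1697 for the average effect and 1 between the GFP-positive groups, and 2 of the 7 receptors for the average effect. With a length correction as well it called 561, 278, 1602 and 1 genes and again 2 receptors, while the calls of Foxp1, Foxo1 and Pik3r1 were lost and those of Myc and Mcl1 were gained. It changed no other call of a receptor. Without a low-count filter, genes called were 678 for TOXFL, 516 for TOXdeltaN, 1665 for the average, 45 for the construct difference, 116 between GFP-positive and 37 between GFP-negative groups, with 1 receptor (Il4ra, adjusted p 0.035) called for the average. DESeq2 gave 318, 120, 1064, 7, 15 and 8, and 1 receptor (Il4ra). Fits of only the groups compared gave 2 for TOXFL, 0 for TOXdeltaN and 1 between GFP-positive groups.

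With 1 library left out at a time, genes called ranged from 0 to 122 for TOXFL (30 to 1772 with the block), 0 to 1571 for TOXdeltaN (0 to 2650), 5 to 2504 for the average (312 to 3681), 0 to 1 for the construct difference, 0 to 704 between GFP-positive and 0 to 1 between GFP-negative groups. Receptors called ranged from 0 to 2 for TOXdeltaN (0 to 2 with the block) and for the average (0 to 5), and from 0 to 3 for TOXFL with the block.

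Some signs turned. Il7r for TOXdeltaN was -0.0017 without a filter. Il2 for TOXFL was 0.017 with limma-voom and 0.0023 with the block. Il15ra between GFP-negative groups was -0.013 with limma-voom, -0.0017 with the block and -0.0063 with block and length correction. Il2ra for the average was 0.037 with block and length correction and 0.036 with the length correction. With 1 library left out, Il15ra ranged from -0.27 to 0.43 for the construct difference, -0.38 to 0.32 between GFP-negative groups, -0.14 to 0.22 between GFP-positive groups and -0.61 to 0.092 for TOXFL. Il2 for TOXFL ranged from -0.45 to 0.53 (-0.24 to 0.27 with the block) and Il21r between GFP-positive groups from -0.0055 to 0.11. Il2ra for the average ranged from -0.035 to 0.035 (-0.049 to 0.046). Il2rb ranged from -0.088 to 0.11 for TOXdeltaN (-0.11 to 0.13) and from -0.16 to 0.038 between GFP-negative groups. Il2rg ranged from -0.0045 to 0.18 for the construct difference and from -0.029 to 0.041 between GFP-negative groups. Il4ra ranged from -0.020 to 0.24 for the construct difference, from -0.054 to 0.050 between GFP-negative groups and, between GFP-positive groups, from -0.023 to 0.23. Il7r ranged from -0.077 to 0.025 for the average (-0.077 to 0.028), -0.075 to 0.084 for TOXdeltaN (-0.10 to 0.11), -0.16 to 0.041 for the construct difference and -0.16 to 0.045 for TOXFL (-0.12 to 0.0095).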

Other observations

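Of 5 markers of CD4 and regulatory T cells, Cd4 had 21 counts in TOXFL-positive replicate 1, 22 in TOXFL-negative replicate 1, 36 in TOXdeltaN-positive replicate 1 and 35 in TOXdeltaN-negative replicate 1, against 0 or 1 count in each replicate 2. Foxp3, the transcription factor of regulatory T cells, was lower in replicate 2 within every group (0.211 to 0.799 of replicate 1), but the replicate numbers overlapped across groups. Ctla4 was higher in replicate 2 within every group (1.13 to 1.33 times), and Ikzf2 and Cd40lg had no common order. Il15ra was higher in replicate 1 in every group, and Il9r in replicate 2. Cd4 and Foxp3 were singled out after their values were seen, and what the replicate number marks is not given in the sources used here.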
